A study of Mus musculus with 24 samples.

Results

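The comparison described here set the livers of freely fed Ercc1 d/- mice at 16 weeks of age against those of freely fed Ercc1 d/- mice at 7 weeks. It used 4 libraries at each age, 8 of the 24 libraries of the series, chosen by their labels for genotype, diet and age and by no measured value. All mice of the series were males of an F1 hybrid of C57BL6J and FVBN, housed singly and kept on a synthetic diet, and polyadenylated liver RNA was sequenced. The other groups, used only for reference, were Ercc1 d/- mice at 16 weeks whose food was restricted by 30%, freely fed Ercc1 +/+ mice at 16 and 104 weeks, and restricted Ercc1 +/+ mice at 16 weeks, with 4 libraries each. Restriction started at 7 weeks, so the younger group stands at the age at which the diets parted. No food was given before collection on the day of sacrifice. The series as given here holds no wild-type group at 7 weeks, so growth and maturation between 7 and 16 weeks and change that belongs to the mutation cannot be told apart in this comparison.

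ERCC1 is the partner of the nuclease XPF and is needed for nucleotide excision repair and for the repair of DNA crosslinks. Mice with a truncated and a null allele accumulate DNA damage in every tissue and show signs of premature ageing within months, and the liver is among the organs affected early. The liver makes most plasma proteins, synthesises cholesterol and fatty acids, stores and clears retinoids and oxidises drugs through cytochrome P450 enzymes. Several of these tasks change in mice between puberty and adulthood as well.

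Library totals were 13514648 to 16595041 counts at 16 weeks and 14022062 to 20624803 at 7 weeks. Levels below are counts-per-million (CPM) on library sizes scaled by TMM, a method that sets aside the most extreme genes, and changes are log2 fold changes with their standard error (SE). Albumin made up 5.36 to 6.65% of counts at 16 weeks and 5.99 to 6.82% at 7 weeks. Of 12 hepatocyte markers none passed edgeR's test at an adjusted p under 0.05. DESeq2 and edgeR on the 8 libraries alone each called 1 lower, against 0.693% and 2.32% of all genes. Negative changes were held by 10 of the 12, against 6263 of 12690 over all genes. Ercc1 itself, read at 1.36, 2.33, 1.25 and 1.5 CPM at 7 weeks and at 2.08, 1.08, 1.42 and 1.46 CPM at 16 weeks, was not called (log2 fold change -0.10 ± 0.28, adjusted p = 0.947). Its mean was 2.59 CPM in freely fed wild-type liver at 16 weeks. A gene-level count does not show which allele a read came from and so checks the labels only in part. The labels give library numbers only and do not say that each number is another mouse. A p-value here therefore speaks of spread among libraries. Pairs of libraries of one age differed at a chi-square per degree of freedom of 11.2 to 45.9, more than counting error alone gives. How much of that spread lies between mice and how much is technical was not tested. The first principal component of the 500 most variable genes held 39.2% of the variance and placed all 16-week libraries between -17.3 and -7.91 and all 7-week libraries between 11.0 and 17.1.

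Of 12690 genes tested, 87 (0.686%) were called, meaning a Benjamini-Hochberg adjusted p under 0.05 in edgeR's quasi-likelihood test on all 24 libraries: 45 (0.355%) were higher and 42 (0.331%) lower at 16 weeks. The libraries of the ages did not overlap for 86 of them, and for 12.4% of all genes tested. The count leans on the choice of libraries. Fitting the 8 libraries alone called 580 genes (4.57%), 285 higher and 295 lower, among them 82 of the 87. DESeq2, another count model, called 201 on the same genes (1.58%), among them 86 of the 87. Leaving out 16-week replicate 1, 2, 3 or 4 left 38, 70, 56 and 39 calls, and leaving out 7-week replicate 1, 2, 3 or 4 left 32, 43, 29 and 56. There were 26 genes that were called in every one of those 8 fits, and the other 61 lost their call in at least 1 of them. With library sizes left unscaled, 89 genes were called, 66 higher and 23 lower, and the median change of all genes was 0.077 in place of 0.004.

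**Figure D1:**
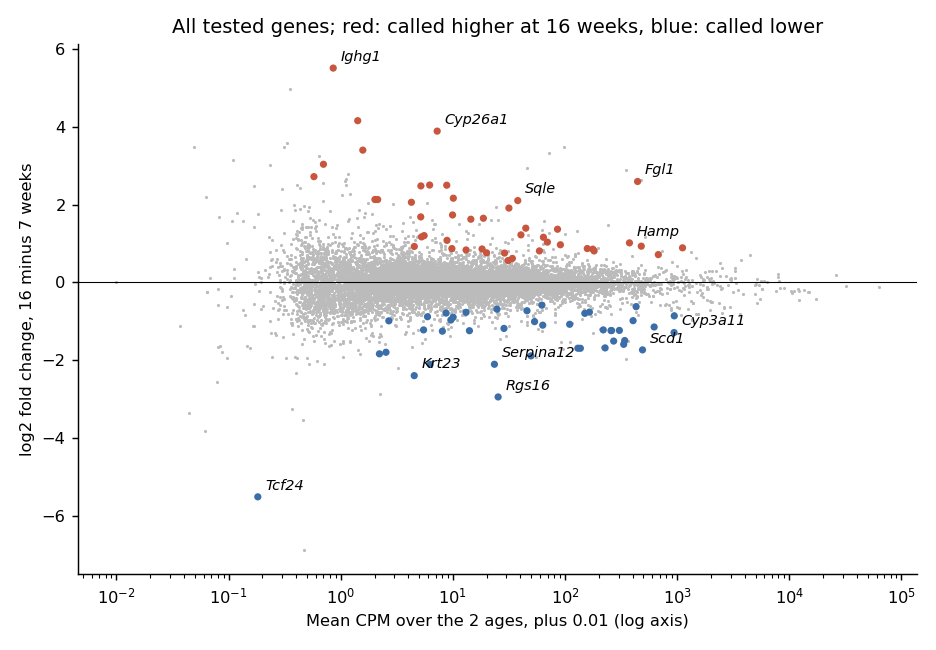
Each point is 1 of 12690 genes, with the mean CPM over both ages (plus 0.01, log axis) across and the log2 fold change, 16 minus 7 weeks, up; the 45 red genes were called higher and the 42 blue genes lower. Called genes lie between log2 fold changes of -5.51 (Tcf24) and 5.51 (Ighg1), and most genes lie close to 0.

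The retinoic acid hydroxylase Cyp26a1, which breaks down retinoic acid and is itself switched on by it, had the smallest p of all genes. It read 0.682, 1.05, 1.03 and 0.890 CPM at 7 weeks and 10.7, 14.6, 17.7 and 11.2 CPM at 16 weeks, so each older library exceeded each younger one by a wide margin. The log2 fold change was 3.89 ± 0.33 (adjusted p = 2.25e-07), and the call held without any 1 library. The mean was 39.2 CPM in restricted mutants at 16 weeks and 3.84 CPM in wild-type liver of that age. Cyp26a1 (ENSMUSG00000024987) lies on chromosome 19 at 37697798 to 37701536 of GRCm38 on the forward strand. Its promoter is shown because it holds the retinoic acid response element through which the gene is known to respond. The 250 bases before the start site (chr19:37697558-37697807, GRCm38.p6, from RefSeq) are given with the match in capitals:

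Cyp26a1: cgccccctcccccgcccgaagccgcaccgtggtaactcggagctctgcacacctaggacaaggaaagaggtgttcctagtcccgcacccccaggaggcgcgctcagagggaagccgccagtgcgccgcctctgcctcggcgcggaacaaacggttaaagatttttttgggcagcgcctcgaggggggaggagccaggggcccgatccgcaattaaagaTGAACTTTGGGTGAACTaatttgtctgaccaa

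The capitals, read on the opposite strand, are a direct repeat of the receptor's 6-base half-site with a 5-base spacer, and the match begins at position -32 from the start site. The letters of the half-site allowed 2 bases at some positions, both strands were searched, and a match was found in 32 of 32817 promoter windows of 300 bases, 0.0975%. Cyp26a1 was the one called gene with such a match among the 66 called genes that have a window. Of 16 tested genes of the thyroid and retinoid list, 1 was called higher and none lower, against 0.355% and 0.331% of all genes. Rarb, a retinoic acid receptor that is also a known target of the acid, had 1.57, 0.997, 1.54 and 1.33 CPM at 7 weeks against 2.14, 2.85, 2.56 and 2.80 CPM at 16 weeks. Its libraries did not overlap, but its change of 0.93 ± 0.34 was not called (adjusted p = 0.289). Rdh9, a retinol dehydrogenase, had a change of -0.36 ± 0.11 (adjusted p = 0.185).

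**Figure D2:**
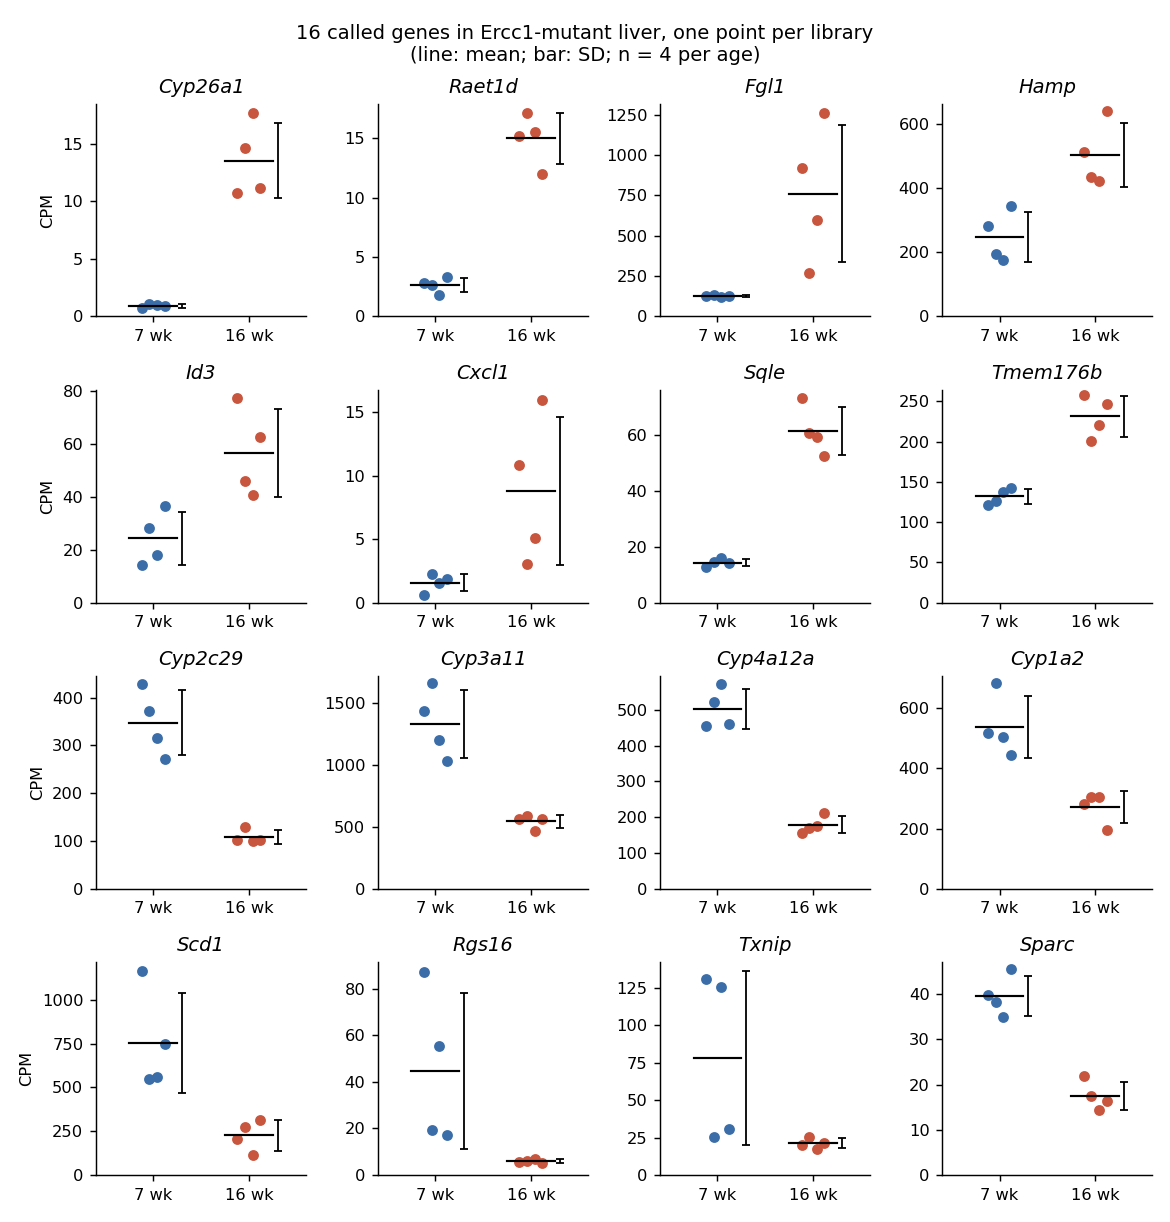
CPM of 16 called genes in each of the 4 libraries per age (points), with the mean as a line and the SD as a bar; each vertical axis starts at 0. The 2 ages do not overlap in any of the 16 panels, and the 7-week points of Rgs16 and Txnip fall into a high and a low pair.

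Raet1d and Raet1e, which encode ligands of the activating receptor NKG2D on natural killer cells, were called higher. Raet1d read 2.78, 2.60, 1.84 and 3.28 CPM at 7 weeks and 15.2, 17.2, 15.5 and 12.0 CPM at 16 weeks, a log2 fold change of 2.50 ± 0.36 (adjusted p = 7.78e-04). Raet1e read 1.54 to 2.17 CPM and 7.25 to 13 CPM, also a change of 2.50, with an SE of 0.40 (adjusted p = 0.0026). Both calls held without any 1 library, and the groups were far apart. Means in restricted mutants were 20.4 and 14.3 CPM. In wild-type liver at 16 weeks they were 8.45 and 6.08 CPM, above the 7-week mutants. The annotated Raet1e model on chromosome 10 (22158569 to 22374139) ends at the same base as Raet1d (22360552 to 22374139) and contains it, and the copies are nearly identical, so reads of one cannot be assigned apart from the other. The 250 bases before a start site of each are shown to make that likeness visible (chr10:22361644-22361893 for Raet1d and chr10:22173247-22173496 for Raet1e, GRCm38.p6, forward strand, from RefSeq; no capitals, since no motif is marked):

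Raet1d: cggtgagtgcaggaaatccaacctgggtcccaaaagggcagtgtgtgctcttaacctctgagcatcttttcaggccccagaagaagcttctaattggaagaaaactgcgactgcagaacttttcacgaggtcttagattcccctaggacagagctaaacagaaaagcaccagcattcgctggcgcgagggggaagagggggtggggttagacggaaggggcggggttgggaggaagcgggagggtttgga
Raet1e: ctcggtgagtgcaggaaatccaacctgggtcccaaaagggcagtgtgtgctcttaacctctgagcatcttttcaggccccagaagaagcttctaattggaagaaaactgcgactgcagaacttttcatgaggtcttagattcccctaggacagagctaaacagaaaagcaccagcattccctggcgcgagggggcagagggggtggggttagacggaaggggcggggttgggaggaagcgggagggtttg

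Aligned with a shift of 2 bases and no gap, the 300-base windows of this pair were the same at 295 of 298 positions, 99.0%. Natural killer and T cell markers, whose cells carry the receptor, were low. Their 24 genes summed to 6.87 to 8.01 CPM at 7 weeks and 4.70 to 7.93 CPM at 16 weeks, 4 were tested, none was called, and Klrb1c had no count in any of the 8 libraries. More or fewer cells of a type and more or less RNA per cell cannot be told apart in whole liver.

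Genes of drug and hormone oxidation held the most called falls of any list. Of 45 tested members of the list of xenobiotic enzymes under the receptors CAR and PXR, 8 were called lower and none higher, against 0.331% and 0.355% of all genes, and their median change was -0.26 against 0.004. The 8 include Cyp3a11, Cyp3a41a, Cyp3a44 and Cyp3a16, relatives that may share reads, so they are not all independent calls. Cyp2c29, a pericentral P450 that epoxidises fatty acids, read 428, 372, 315 and 272 CPM at 7 weeks and 102, 129, 101 and 101 CPM at 16 weeks. All older libraries lay below all younger ones, with a change of -1.68 ± 0.17 (adjusted p = 5.20e-06). Its mean in wild-type liver at 16 weeks was 1067 CPM.

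Cyp3a11, the main steroid and drug hydroxylase of mouse liver, read 1437, 1659, 1198 and 1030 CPM at 7 weeks against 561, 586, 470 and 567 CPM at 16 weeks. It fell by 1.29 on the log2 scale (SE 0.22, adjusted p = 0.00346). Cyp3a41a, Cyp3a41b, Cyp3a44 and Cyp3a16, copies that are more abundant in females, fell by 1.23, 1.23, 1.23 and 1.22. The annotated copies are close relatives: the promoter windows of Cyp3a41a and Cyp3a41b were the same at 292 of 300 positions and those of Cyp3a16 and Cyp3a41a at 280 of 296 (97.3% and 94.6%). Cyp3a41a read 385, 464, 324 and 287 CPM at 7 weeks and 165, 160, 137 and 159 CPM at 16 weeks. That is a like ratio to Cyp3a11 in each of the 8 libraries. The copies may share reads with each other and with Cyp3a11, so their separate values are uncertain. These Cyp3a genes and Cyp2c29 kept their calls without any 1 library. In restricted mutants at 16 weeks Cyp3a11 averaged 1947 CPM, and in wild-type liver 1549 CPM at 16 weeks and 193 CPM at 104 weeks. In the same order Cyp3a41a averaged 721, 420 and 55.2 CPM.

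Cyp4a12a and Cyp4a12b, male-specific fatty acid hydroxylases under growth hormone and testosterone, fell as well. Cyp4a12a read 454, 521, 573 and 461 CPM at 7 weeks and 156, 170, 176 and 213 CPM at 16 weeks (log2 fold change -1.49 ± 0.20, adjusted p = 2.58e-04). Cyp4a12b went from a mean of 401 to 141 CPM (-1.50 ± 0.20), and the pair may share reads. Both kept their calls without any 1 library. Cyp1a2 and Cyp1a1, the dioxin-inducible P450s, had means of 537 and 71.4 CPM at 7 weeks and 272 and 35.6 CPM at 16 weeks. Their changes were -0.98 ± 0.23 (adjusted p = 0.0404) and -1.01 ± 0.24 (adjusted p = 0.0474). The 2 genes are relatives with like changes, and whether they share reads was not tested. Cyp4v3, a fatty acid hydroxylase, fell by 0.62, the aldehyde oxidase Aox3 by 1.14, the carboxylesterase Ces2a by 0.79 and Inmt, an amine methyltransferase, by 1.59. Of these 6, Inmt alone was called without any 1 library. Leaving out 1 library ended the calls of Aox3, Cyp1a1 and Cyp4v3 in all 8 such fits.

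Genes with a sex bias in liver had negative medians in both directions of bias. Of 37 tested genes known to be higher in males, 2 were called higher and 2 lower, against 0.355% and 0.331% of all genes. Their median was -0.26. In the fit on the 8 libraries alone 2 were called higher and 12 lower, against 2.25% and 2.32% of all genes. The ages did not overlap for 2 in the direction of a rise and 14 in that of a fall, against 5.94% and 6.45%. Of 39 genes known to be higher in females, 4 were called lower and none higher, against 0.331% and 0.355% of all genes. Their median was -0.24. In the fit on the 8 libraries alone 9 were called lower and 1 higher, against 2.32% and 2.25%. The 4 called on 24 libraries are the Cyp3a copies named above, whose counts may hold reads of Cyp3a11. The male-biased fallers called there are the Cyp4a12 pair. The male-biased risers called on 24 libraries were Susd4, a complement regulator (9.41 to 16.8 CPM on average, 0.84 ± 0.20), and Bcl6, a repressor (9.00 to 28.4 CPM, 1.65 ± 0.39). Leaving out 1 library ended the call of Susd4 in all 8 fits and that of Bcl6 in 7. Bcl6 is the called gene whose ages overlapped: 16-week replicate 2 read 9.34 CPM, inside the 7-week range of 7.17 to 11.9, and its call was lost in the 8-library fit (adjusted p = 0.0600). Moxd1, which had 2.05, 1.05, 6.54 and 6.17 CPM at 7 weeks and 0.0712 to 1.02 CPM at 16 weeks, was not called (-2.86 ± 0.69, adjusted p = 0.0639), and neither was Cyp2c39 (-0.79 ± 0.20, adjusted p = 0.0690). Mup20, the male pheromone protein, averaged 7536 and 8311 CPM with overlapping ages (adjusted p = 0.942). The growth factor gene Igf1 averaged 236 and 222 CPM (adjusted p = 0.893), and the growth hormone receptor Ghr 384 and 265 CPM (-0.53 ± 0.16, adjusted p = 0.160).

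The called genes of fatty acid synthesis were the desaturases. Scd1, the delta-9 desaturase that makes monounsaturated fatty acids, read 1163, 549, 558 and 747 CPM at 7 weeks and 205, 273, 114 and 317 CPM at 16 weeks. The ages did not overlap, and the change was -1.73 ± 0.40 (adjusted p = 0.0448). Scd2 and Scd3 were called with changes of -1.69 each, but the 3 genes are near copies, kept a like ratio in every library and may share reads. None of the 3 calls held in any fit without 1 library. Of 34 tested lipogenic genes 2 were called lower, Scd1 and Scd2, against 0.331% of all genes, and the list's median was -0.14. Acacb, which makes the malonyl-CoA that restrains fatty acid oxidation, had 58.1 to 71.9 CPM at 7 weeks and 32.1 to 39.0 CPM at 16 weeks (-0.86 ± 0.26, adjusted p = 0.159). Thrsp, a lipogenic regulator, averaged 540 and 190 CPM (adjusted p = 0.324).

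Acsl1, which activates long-chain fatty acids for oxidation, fell from 954 to 1542 CPM at 7 weeks to 633 to 706 CPM at 16 weeks (-0.86 ± 0.20, adjusted p = 0.0404). It was the 1 called gene among 48 of PPARA and fatty acid oxidation, whose median was -0.11. The call of Acsl1 was lost in 7 of 8 fits without 1 library. The fatty acid carrier Fabp1 read 2990 to 3440 CPM and 1681 to 2556 CPM and was not called (-0.66 ± 0.17, adjusted p = 0.0766). Cyp4a14, a sensitive PPARA target, averaged 90.7 and 82.0 CPM with overlapping ages. Sgms1, a sphingomyelin synthase, fell by 0.99, Enpp2, which makes lysophosphatidic acid, by 1.10, and Nampt, the rate-limiting enzyme of NAD salvage, by 1.07. Without 1 library the calls of Sgms1 and Enpp2 were lost in 6 and 2 of 8 fits. Nampt read 168, 150, 150 and 128 CPM at 7 weeks and 57.7, 74.8, 70.4 and 80.4 CPM at 16 weeks (adjusted p = 0.00508), and its call held without any 1 library.

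In sterol synthesis the called gene was Sqle, squalene epoxidase, a rate-limiting step of the pathway. It read 12.7, 14.6, 15.9 and 14.0 CPM at 7 weeks and 73.3, 60.9, 59.3 and 52.4 CPM at 16 weeks. The lowest older library was more than 3 times the highest younger one, and the change was 2.10 ± 0.48 (adjusted p = 0.0439). It was the 1 member called of 28, and its call was lost in all 8 fits without 1 library. Most of the list lay higher at 16 weeks: its median change was 0.67, 25 of 28 members were positive, and the ages did not overlap, in the direction of a rise, for 19 members, against 5.94% of all genes. In the fit on the 8 libraries alone 20 members were called higher and 1 lower, against 2.25% and 2.32% of all genes.

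Among its members, Hmgcs1, the synthase at the entry to the pathway, had 26.6 to 44.8 CPM at 7 weeks and 88.1 to 104 CPM at 16 weeks (1.59 ± 0.45, adjusted p = 0.129). The later enzyme Cyp51 had 30.5 to 34.1 CPM and 65.2 to 78.4 CPM (1.09 ± 0.31, adjusted p = 0.124). Srebf2, the factor that drives the pathway, averaged 43.3 and 67.6 CPM (0.65 ± 0.20, adjusted p = 0.150). In the 8-library fit the adjusted p was 7.99e-05 for Hmgcs1, 3.32e-05 for Cyp51 and 0.00287 for Srebf2. Cyp7a1, which starts bile acid synthesis from cholesterol, averaged 110 and 94.6 CPM (adjusted p = 0.958).

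**Figure D3:**
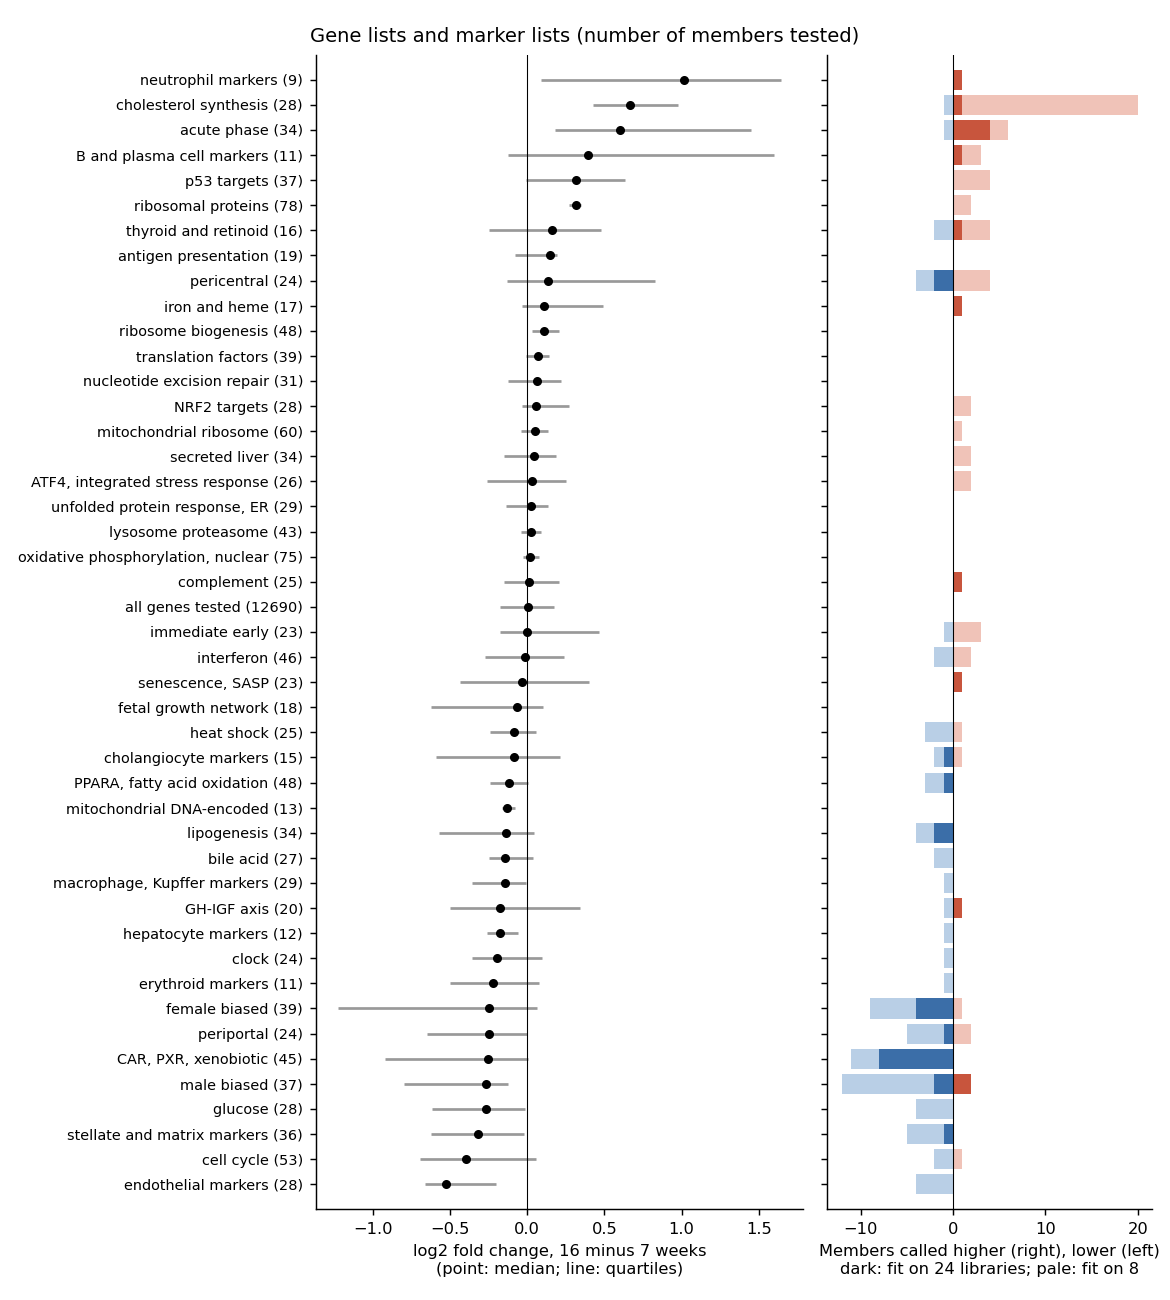
Left, the median (point) and quartiles (line) of the log2 fold change, 16 minus 7 weeks, over the tested members of each gene or marker list with at least 9; right, how many members were called higher or lower in the fit on 24 libraries (dark) and on the 8 libraries (pale, drawn behind). Cholesterol synthesis has the largest count of pale red bars, 20 of 28, and the xenobiotic list the largest count of dark blue, 8 of 45.

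Of 34 tested acute-phase genes 4 were called higher (Cxcl1, Apcs, Itih3 and Hamp) and none lower, against 0.355% and 0.331% of all genes. The 8-library fit called 6 higher and 1 lower, against 2.25% and 2.32%. DESeq2 called 9 higher and 1 lower, against 0.89% and 0.693%. Positive changes were held by 27 of the 34, against 6427 of 12690 over all genes, and the median was 0.60. Fgl1, a hepatocyte protein that dampens T cells and is in no list, read 127, 134, 120 and 124 CPM at 7 weeks and 920, 268, 596 and 1262 CPM at 16 weeks (2.60 ± 0.54, adjusted p = 0.0299). The neutrophil attractant Cxcl1 read 0.629, 2.22, 1.54 and 1.89 CPM and 10.9, 3.08, 5.13 and 16.0 CPM (2.48 ± 0.50, adjusted p = 0.018). In both genes 16-week replicate 4 was highest, then replicate 1, and replicate 2 was lowest. Leaving out 1 library ended the call of Fgl1 in 6 of 8 fits and that of Cxcl1 in 4.

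The same order held for Apcs, serum amyloid P, at 141, 65.2, 102 and 185 CPM at 16 weeks against 39.1 to 52.1 CPM at 7 weeks (1.37 ± 0.29, adjusted p = 0.0235). Itih3, a hyaluronan-binding inhibitor chain, read 751 to 815 CPM and then 1486, 987, 1396 and 1932 CPM (0.89 ± 0.20, adjusted p = 0.0331). Leaving out 1 library ended the call of Apcs in 6 of 8 fits and that of Itih3 in 7. Lcn2, the iron-scavenging lipocalin, had 13.1 to 18.5 CPM and then 202, 42.5, 104 and 371 CPM and was not called (3.48 ± 0.94, adjusted p = 0.109). Saa1 read 111 to 153 CPM at 7 weeks, 1028 and 2109 CPM in 16-week replicates 1 and 4, and 71.9 and 97.4 CPM in replicates 2 and 3 (adjusted p = 0.454), and Orm2 was at means of 127 and 353 CPM (adjusted p = 0.0739).

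Neutrophil markers were higher in sum. Their 20 genes summed to 45.9 to 83.0 CPM at 7 weeks and 121 to 507 CPM at 16 weeks. Most of the sum at 16 weeks was Wfdc21 and Lcn2, and Lcn2 is also a member of the acute-phase list. Of the 9 tested, 1 was called higher and none lower, against 0.355% and 0.331% of all genes. It was Wfdc21, at 20.2 to 54.6 CPM and 68.1 to 123 CPM (1.16 ± 0.25, adjusted p = 0.0272). Wfdc21 lost this call in the 8-library fit (adjusted p = 0.0860) and in 4 of 8 fits without 1 library. DESeq2 called 3 of the 9 higher and none lower, against 0.89% and 0.693% of all genes. Positive changes were held by 8 of the 9, against 6427 of 12690 over all genes, and the median of the 9 was 1.02. The other 11 were too low to test. Of these Mpo and Mmp8 had no count in any of the 8 libraries, and Clec4d had 4 counts in all at 7 weeks and 13 at 16 weeks. S100a9 read at most 0.166 CPM at 7 weeks and 0.171 to 1.07 CPM at 16 weeks (adjusted p = 0.131), and S100a8 averaged 0.248 and 0.790 CPM (adjusted p = 0.260). The part of neutrophils in the acute-phase values was not tested.

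The immunoglobulin heavy chain Ighg1, a plasma cell product, had 2 counts in all at 7 weeks and 105 at 16 weeks. The library values were 0.0524, 0, 0 and 0.0556 CPM and then 3.02, 0.228, 0.427 and 2.99 CPM, again with replicates 1 and 4 high. The ratio of the pooled levels was 57.1, with a 95% counting interval of 15.4 to 477 that covers counting error only, and the gene was called (adjusted p = 0.00739) and kept its call without any 1 library. Ighg2c averaged 0.0408 and 0.601 CPM and was not called (adjusted p = 0.0766). Igkc averaged 1.31 and 2.19 CPM, and Ighm averaged 3.68 and 3.29 CPM, and neither was called (adjusted p = 0.621 and 0.954).

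The Cxcl1 promoter is shown because it holds the kappa B motif through which inflammatory signals are known to act on this gene (250 bases before the start site, chr5:90890995-90891244, GRCm38.p6, forward strand, from RefSeq; capitals mark the match):

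Cxcl1: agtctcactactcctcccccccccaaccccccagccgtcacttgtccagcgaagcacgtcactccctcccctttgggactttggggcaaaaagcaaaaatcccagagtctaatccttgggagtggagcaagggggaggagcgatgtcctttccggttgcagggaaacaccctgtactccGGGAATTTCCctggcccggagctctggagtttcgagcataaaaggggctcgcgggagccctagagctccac

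The motif was searched on both strands by its usual 10-base consensus, and 5.80% of all 32817 windows hold a match. Counted by gene, 6.55% of all genes with a window had one, as did 4 of 32 called risers (12.5%) and 2 of 34 called fallers (5.88%). The 4 risers include the neighbours Tmem176a and Tmem176b, whose windows overlap and hold the same site, read on opposite strands. A match is a description of the letters only.

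Hamp, Id2 and Id3, all known targets of bone morphogenetic protein (BMP) signalling through SMAD factors, were called higher. Hamp, which encodes the iron hormone hepcidin, read 281, 193, 175 and 343 CPM at 7 weeks and 512, 435, 423 and 640 CPM at 16 weeks. It rose by 1.02 ± 0.22 (adjusted p = 0.0319). Id3, an inhibitor of differentiation factors, read 14.1, 28.3, 18.1 and 36.5 CPM and then 77.2, 46.0, 40.5 and 62.7 CPM (1.22 ± 0.28, adjusted p = 0.0371), and Id2 averaged 61.4 and 120 CPM (0.97 ± 0.20, adjusted p = 0.0201). Id1 averaged 7.35 and 18.6 CPM with overlapping ages and was not called (1.33 ± 0.45, adjusted p = 0.235). At 7 weeks Id1, Id2 and Id3 were all higher in replicates 2 and 4 than in 1 and 3. Of 17 tested genes of iron and heme handling, Hamp was the 1 called. Wild-type means at 16 weeks were 597 CPM for Hamp and 51.7 CPM for Id3. Id3 lost its call in the 8-library fit (adjusted p = 0.0753), and without 1 library the calls of Hamp, Id2 and Id3 were lost in 5, 4 and 5 of 8 fits.

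The Hamp promoter is shown because both inputs to the gene, BMP and the acute-phase factor STAT3, are known to act there (250 bases before the start site, chr7:30944030-30944279, GRCm38.p6, reverse strand, from RefSeq; capitals mark a BMP response element GGCGCC and, after it, a STAT site TTCNNNGAA):

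Hamp: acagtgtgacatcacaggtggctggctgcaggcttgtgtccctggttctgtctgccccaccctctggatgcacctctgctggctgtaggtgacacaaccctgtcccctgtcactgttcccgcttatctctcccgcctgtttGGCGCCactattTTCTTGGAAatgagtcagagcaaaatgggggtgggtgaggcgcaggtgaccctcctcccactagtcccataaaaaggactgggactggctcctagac

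The matches begin at -109 and -97 from the start site. Both motifs were searched on both strands and do not overlap each other. The first is common, in 11.9% of all windows, and the second is in 8.29%. By gene, GGCGCC was found for 13.4% of all genes, for 18.8% of called risers with a window and for 14.7% of called fallers.

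Tmem176a and Tmem176b, neighbouring genes for ion channel proteins of the antigen-presenting compartment that the liver also expresses, rose together. Tmem176a read 108, 121, 104 and 115 CPM at 7 weeks and 240, 171, 197 and 209 CPM at 16 weeks (0.87 ± 0.12, adjusted p = 2.48e-04). Tmem176b read 122, 126, 137 and 142 CPM and then 258, 201, 221 and 246 CPM (0.81 ± 0.11, adjusted p = 2.58e-04). These were narrow, separate ranges, and both calls held without any 1 library. The genes run in opposite directions on chromosome 6 (48840919 to 48847071 and 48833818 to 48841496), and their models overlap. Since it is not given whether counting used strand, part of either count may belong to the other. A shared stretch is printed for that reason, the 250 bases before a Tmem176a start site (chr6:48841233-48841482, GRCm38.p6, forward strand, from RefSeq), whose 300-base window shares 208 bases with a window of Tmem176b:

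Tmem176a: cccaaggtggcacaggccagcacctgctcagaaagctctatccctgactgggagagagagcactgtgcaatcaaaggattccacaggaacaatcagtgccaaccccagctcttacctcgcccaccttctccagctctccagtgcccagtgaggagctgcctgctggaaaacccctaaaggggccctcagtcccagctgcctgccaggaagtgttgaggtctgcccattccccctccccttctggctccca

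Of 25 tested complement genes 1 was called, Mbl2, a mannose-binding lectin, at 497 to 534 CPM and 751 to 950 CPM (0.72 ± 0.16, adjusted p = 0.0373). Mbl2 lost this call in 7 of 8 fits without 1 library. Interferon genes gave no call among 46, with Irf7 at means of 40.6 and 48.0 CPM (adjusted p = 0.737) and Irf1 at 10.7 and 20.3 CPM (adjusted p = 0.0627). Irf5, an interferon regulatory factor of macrophages that is in no list, fell by 0.79 ± 0.16 (adjusted p = 0.0176). Irf5 lost its call in 5 of 8 fits without 1 library.

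Rgs16 and Txnip, both known to follow glucose and feeding in hepatocytes, were lower at 16 weeks. Rgs16, a regulator of G protein signalling, read 87.3, 19.1, 55.6 and 17.0 CPM at 7 weeks and 5.48, 5.98, 6.91 and 4.96 CPM at 16 weeks. Its change was -2.94 ± 0.48 (adjusted p = 0.00346), and the call held without any 1 library. Txnip, which restrains glucose uptake, read 131, 25.6, 126 and 30.4 CPM and then 20.3, 25.5, 17.2 and 21.6 CPM (-1.89 ± 0.44, adjusted p = 0.0474). In both genes 7-week replicates 1 and 3 were high and 2 and 4 low. The lowest younger library of Txnip lay only just above the highest older one, and in the 8-library fit Txnip was not called (adjusted p = 0.175). Its call was also lost in 6 of 8 fits without 1 library.

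None of 28 genes of glucose metabolism was called, 4 were called lower in the 8-library fit, against 2.32% of all genes, and the median was -0.27. G6pc, which releases glucose, had 222 to 352 CPM at 7 weeks and 98.8 to 146 CPM at 16 weeks (-1.20 ± 0.52, adjusted p = 0.421). Foxo1, which drives fasting genes, had -0.88 ± 0.22 (adjusted p = 0.0696), and Pfkfb3, a switch of glycolysis, -1.04 ± 0.29 (adjusted p = 0.104). Clock genes, which mark the hour of collection, gave no call among 24. Dbp, a clock output, nonetheless read 17.2 to 22.9 CPM at 7 weeks and 9.62 to 14.7 CPM at 16 weeks (adjusted p = 0.383), and Nr1d1 averaged 7.41 and 4.69 CPM (adjusted p = 0.584). The part of collection time or of the hours since the last meal in these values was not tested. Serpina12, the adipokine vaspin, read 33.9, 26.3, 50.9 and 41.2 CPM and then 12.0, 6.78, 9.26 and 7.44 CPM (-2.10 ± 0.31, adjusted p = 9.64e-04), and this call held without any 1 library. Fgf21, a fasting hormone, averaged 2.12 and 1.44 CPM (adjusted p = 0.755).

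Among stellate and matrix genes 1 was called. Sparc, a collagen-binding matrix protein of stellate and endothelial cells, read 39.8, 38.2, 35.0 and 45.5 CPM at 7 weeks and 21.8, 17.4, 14.4 and 16.3 CPM at 16 weeks (-1.18 ± 0.21, adjusted p = 0.00404). The highest older library lay well under the lowest younger one, and the call held without any 1 library. It was the 1 called of 36 stellate and matrix genes (median -0.32), of which 9 did not overlap in the direction of a fall, against 6.45% of all genes. Col3a1, a fibrillar collagen, had 34.6 to 51.1 CPM and 14.1 to 23.9 CPM (-1.12 ± 0.34, adjusted p = 0.153). Col4a2 of basement membranes averaged 40.1 and 24.5 CPM (adjusted p = 0.129), and Col1a1 9.44 and 5.86 CPM (adjusted p = 0.680). The summed stellate and matrix markers overlapped, at 2209 to 2511 CPM and 2020 to 2470 CPM. The genes named here were a small part of that sum, and 27 of the 36 tested changes were negative.

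The 28 endothelial markers gave no call, 4 lower calls in the 8-library fit, against 2.32% of all genes, and a median of -0.52. Stab2, the hyaluronan receptor of sinusoids, had 42.5 to 54.8 CPM and 28.9 to 33.0 CPM (-0.68 ± 0.21, adjusted p = 0.162), and Dpp4 -0.65 ± 0.18 (adjusted p = 0.109). Mmp14, a membrane collagenase in no list, was called higher, at 13.6 to 15.8 CPM and 22.7 to 31.1 CPM (0.76 ± 0.17, adjusted p = 0.0317). Mmp14 lost this call in 7 of 8 fits without 1 library. None of 29 macrophage markers was called. Of 15 bile duct markers Krt23, a keratin, was called lower, at 10.2, 7.59, 6.25 and 6.34 CPM and then 0.944, 1.88, 0.997 and 1.91 CPM (-2.39 ± 0.42, adjusted p = 0.00438). The other 14 were not called, 7 of the 15 changes were positive, and the ages did not overlap for 2 in the direction of a rise and 4 in that of a fall, against 5.94% and 6.45% of all genes. The summed level of all 23 bile duct markers in the table was higher at 16 weeks without overlap, at 318 to 344 CPM and then 362 to 457 CPM. A large part of that difference was Krt18, which averaged 92.8 CPM at 7 weeks and 155 CPM at 16 weeks. Spp1, another of the 23, averaged 32.0 and 18.5 CPM. Gpc3, a fetal liver gene, averaged 1.66 and 3.39 CPM and Afp 11.8 and 7.34 CPM, and neither was called (adjusted p = 0.408 and 0.229).

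Genes that answer DNA damage through p53 gave no call among 37 at these ages, and both groups carry the mutation. Their median was 0.31, 27 were positive, and 8 did not overlap in the direction of a rise, 21.6% against 5.94% of all genes. The 8-library fit called 4 higher, against 2.25% of all genes, and DESeq2 2, against 0.89%, and neither called any lower. Phlda3, an inhibitor of AKT, read 2.36, 3.43, 0.808 and 2.39 CPM at 7 weeks and 22.8, 5.47, 4.99 and 4.51 CPM at 16 weeks (2.05 ± 0.50, adjusted p = 0.0576). Ccng1, cyclin G1, read 24.4 to 30.0 CPM and 66.5, 34.4, 40.7 and 44.9 CPM (0.81 ± 0.21, adjusted p = 0.0793). In both, 16-week replicate 1 was the highest library.

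Cdkn1a, the cell cycle brake p21, had 24.8, 17.7, 16.3 and 16.7 CPM and then 54.3, 16.1, 24.2 and 14.6 CPM (0.53 ± 0.54, adjusted p = 0.809). Without 16-week replicate 1 its change was -0.05. The stress hormone Gdf15 averaged 17.4 and 23.5 CPM (0.44 ± 0.39, adjusted p = 0.763), and without that library its change was -0.07. Bax, Aen and Tnfrsf10b, which promote apoptosis, had changes of 0.52, 0.63 and 1.79 with adjusted p = 0.190, 0.174 and 0.129.

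None of 53 cell cycle genes was called, and their median was -0.39. Mki67 read 4.98, 12.3, 6.17 and 12.9 CPM and then 2.77, 5.93, 2.71 and 4.07 CPM (-1.23 ± 0.42, adjusted p = 0.229), with replicates 2 and 4 high in the younger group as for the Id genes. Racgap1, needed for cell division, averaged 1.54 and 0.518 CPM (adjusted p = 0.0975) and Top2a 4.82 and 3.51 CPM (adjusted p = 0.749).

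Zonation lists were mixed. Of 24 tested pericentral genes 2 were called lower, Cyp2c29 and Cyp1a2, and none higher, against 0.331% and 0.355% of all genes. The 8-library fit called 4 lower and 4 higher, against 2.32% and 2.25%. Axin2 and Rnf43, WNT targets of pericentral cells, averaged 5.80 and 8.42 CPM at 7 weeks and 11.2 and 18.4 CPM at 16 weeks and missed the threshold (adjusted p = 0.0576 and 0.105). Ang, an angiogenin, went from 121 to 159 CPM to 192 to 306 CPM (0.88 ± 0.22, adjusted p = 0.0556). Its neighbour Rnase4, whose model overlaps it on chromosome 14, was called (0.93 ± 0.22, adjusted p = 0.0499), and reads of the pair cannot be assigned apart. Hal, histidase, was the 1 called of 24 periportal genes, at 181 to 230 CPM and 82.4 to 150 CPM (-0.76 ± 0.18, adjusted p = 0.0460). The 8-library fit called 5 periportal genes lower and 2 higher, against the same shares of all genes. Without 1 library the calls of Rnase4 and Hal were each lost in 7 of 8 fits. Among 25 heat shock genes none was called, and Hspa1a, which has a near copy, averaged 136 and 46.6 CPM (adjusted p = 0.401).

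Cytosolic ribosomal protein genes gave no call among 78, yet all 78 had a positive change. Their median was 0.31, their range 0.09 to 0.55, and 38 did not overlap in the direction of a rise and none in that of a fall, against 5.94% and 6.45% of all genes. Rps20 read 126, 129, 128 and 124 CPM at 7 weeks and 210, 147, 163 and 156 CPM at 16 weeks (0.41 ± 0.14, adjusted p = 0.211). Rps6 averaged 221 and 258 CPM with overlapping ages (adjusted p = 0.537). The summed level ran from 11312 to 11878 CPM at 7 weeks and from 12938 to 17988 CPM at 16 weeks. Ribosomal protein genes are short and have processed copies elsewhere in the genome, so single values are uncertain.

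Gene span, the distance from a gene's first to its last base, moved with the change. For each library the slope of log2 CPM (with 0.1 CPM added, centred per gene over all 24 libraries) on log10 span was taken over all 12690 genes. The slopes were 0.083, -0.006, 0.070 and 0.056 at 7 weeks and -0.174, -0.077, -0.140 and -0.038 at 16 weeks. The ages did not overlap, and their means of 0.0507 ± 0.0391 and -0.107 ± 0.0613 (SD, n = 4) differed by -0.158 in a two-sided exact permutation test (p = 0.0286, the smallest that 70 relabellings can give). Without 7-week replicate 1, 3 or 4 the difference was -0.147, -0.152 and -0.156 with exact p = 0.0571 each. In the other groups, freely fed wild-type libraries ran from 0.00209 to 0.143 at 16 weeks and from -0.265 to 0.142 at 104 weeks, and restricted mutants from -0.209 to 0.0295, ranges that overlap.

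The median change fell step by step with span. It was 0.11 for 1526 genes under 5 kb, -0.0026 for 3579 genes of 20 to 50 kb, -0.29 for 444 genes of 200 to 500 kb and -0.50 for 83 genes over 500 kb, of which 83.1% were negative. Spans over 100 kb were held by 12 of 42 called fallers (28.6%), by 7 of 45 called risers (15.6%) and by 12.3% of all genes. Immp2l, a mitochondrial peptidase subunit spread over 928282 bases, read 8.65, 8.31, 6.61 and 7.01 CPM at 7 weeks and 4.22, 3.30, 3.21 and 2.42 CPM at 16 weeks (-1.22 ± 0.21, adjusted p = 0.00346). Adgrv1, a very large adhesion receptor of 538086 bases, read 9.55, 6.48, 13 and 11.6 CPM and then 1.64, 2.17, 1.78 and 3.81 CPM (-2.10 ± 0.34, adjusted p = 0.0026). Both calls held without any 1 library.

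Further long genes with a called fall included Cadps2 of vesicle release (-0.89), Bcas3 (-0.96), Pcca, a subunit of propionyl-CoA carboxylase (-0.58), Ppp3ca, a calcineurin subunit (-0.77), and Sntg2, a syntrophin (-1.25), and all of these lost their call in 4 or more of the 8 fits without 1 library. Klhl13, a ubiquitin ligase adaptor of 145811 bases, read 3.23 to 4.49 CPM and 0.818 to 1.27 CPM (-1.79 ± 0.24, adjusted p = 2.48e-04), and kept its call. Among the very longest genes tested, the phosphatase gene Ptprd averaged 99.7 and 62.0 CPM (-0.69 ± 0.25, adjusted p = 0.295) and Dmd, dystrophin, 12.9 and 9.67 CPM (adjusted p = 0.587). RNA integrity values were not used here, and the part of RNA quality in the trend was not tested. In 16-week replicate 1, the steepest of the older libraries, 10.9% of counts came from mitochondrial DNA, against 9.37 to 11.6% over all 8.

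**Figure D4:**
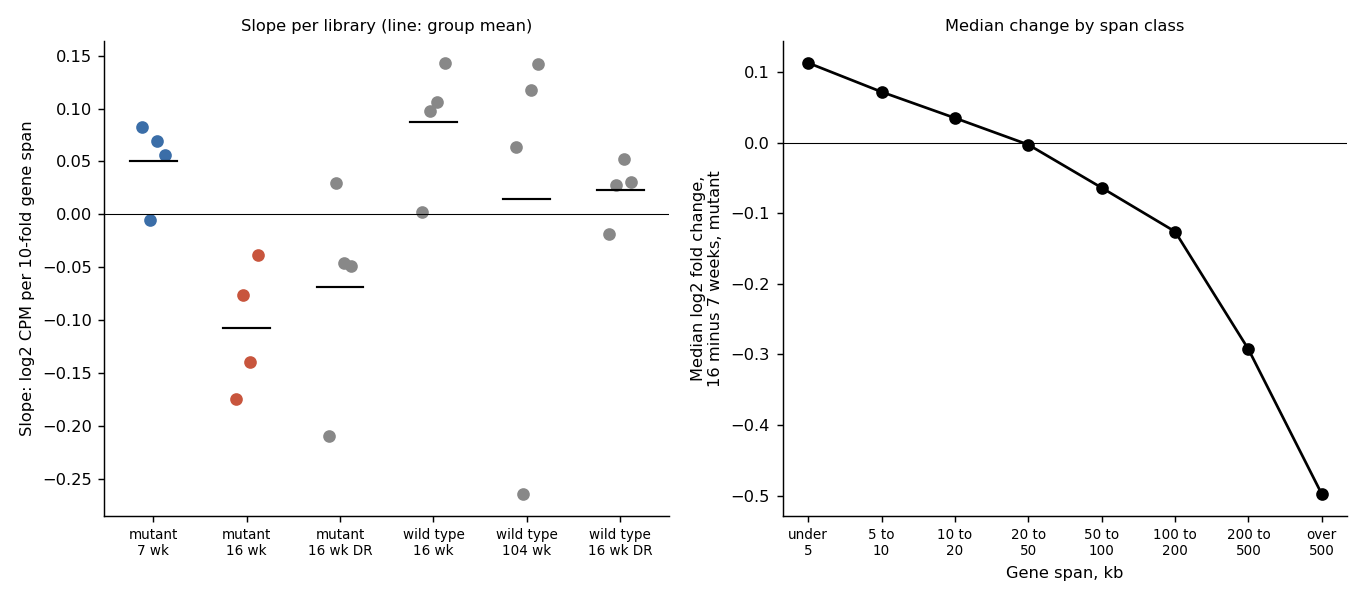
Left, the slope of log2 CPM on log10 gene span for each library (point) of the 6 groups, with the group mean as a line; DR is dietary restriction. Right, the median log2 fold change, 16 minus 7 weeks, in 8 classes of gene span. The 4 blue 7-week points lie above the 4 red 16-week points, and the median falls from 0.11 to -0.50.

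The remaining called risers are in no list described above. Cplane1, a ciliary planar polarity gene, read 13.2, 11.6, 13.6 and 14.6 CPM at 7 weeks and 52.4, 34.6, 51.1 and 61.5 CPM at 16 weeks (1.91 ± 0.33, adjusted p = 0.00396), and Irx1, a homeobox factor, read 0.472 to 1.05 CPM and 2.42 to 3.99 CPM (2.13 ± 0.33, adjusted p = 0.00148). Igdcc4, an immunoglobulin-domain receptor, read 0.111 to 0.420 CPM and 1.31 to 4.83 CPM (3.40 ± 0.59, adjusted p = 0.00396). These 3 calls held without any 1 library. Igdcc4 averaged 2.7 CPM in restricted mutants and 0.105, 0.174 and 0.184 CPM in the wild-type groups at 16 weeks, 104 weeks and under restriction, so only the 2 older mutant groups had means above 1 CPM. Adam32, a disintegrin known from testis, averaged 0.142 and 0.991 CPM (2.72 ± 0.61, adjusted p = 0.0331), 1.2 CPM in restricted mutants and at most 0.0917 CPM in the wild-type groups. Adam32 lost its call in 6 of 8 fits without 1 library.

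Transcripts at low levels that rose were Nptx1, a pentraxin (0.134 to 2.68 CPM on average), Capn11, a calpain (0.138 to 1.24 CPM), and Gm379 (0.750 to 3.26 CPM). Nptx1 was not called by DESeq2 (adjusted p = 0.0914) and lost its edgeR call in 7 of 8 fits without 1 library. Capn11 and Gm379 lost theirs in 5 and 7 of the 8. Higher levels were reached by the sulfotransferase Sult2a7 (3.66 to 16.5 CPM), the nuclear receptor corepressor Hr (1.64 to 6.87 CPM), the flippase Atp11a (4.57 to 15.3 CPM) and the Nogo-type receptor Rtn4rl1 (2.44 to 7.87 CPM). In the same order these calls were lost in 2, 3, 5 and 2 of the 8 fits. The vasopressin receptor Avpr1a of pericentral cells rose from 5.23 to 8.30 CPM to 19.6 to 23.8 CPM (1.63 ± 0.36, adjusted p = 0.0361), and the cystine transporter subunit Slc3a1 from 22.8 to 26.1 CPM to 37.2 to 120 CPM (1.40 ± 0.28, adjusted p = 0.0172). Slc3a1 was not called in the 8-library fit (adjusted p = 0.0583), and Avpr1a lost its call in all 8 fits without 1 library. Slc3a1 lost its call in 5 of those fits.

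Further risers, with their log2 fold changes, were the oxygen sensor Egln3 (1.2), the adhesion gene Cadm4 (1.17), the synaptic adhesion gene Lrfn3 (1.08), Arhgef19 (1.04), Cib2 (0.93), Tmem43 (0.87), Gse1 (0.86), the progestin receptor family gene Paqr9 (0.86), the GATA cofactor Zfpm1 (0.81), AI661453 (0.76), the purine salvage enzyme Aprt (0.62) and the polarity gene Llgl2 (0.56). Each of these lost its call in at least 1 fit without 1 library, and Egln3 and Aprt in all 8. Remaining falls were the histone demethylase Phf8 (-1.24), A630076J17Rik (-1.83), Rab3gap1 of vesicle traffic (-0.73) and the prelamin-binding Narf (-0.69). In the same order these calls were lost in 3, 6, 4 and 4 of the 8 fits. Tcf24, a helix-loop-helix factor, had 24 counts at 7 weeks and none at 16 weeks, and was at least 7.36-fold lower against a floor of 3 counts over the older group (adjusted p = 0.0404, and lost in every fit without 1 library). In all, 59 of the 87 called genes belonged to none of the 48 lists, and 30 lists had no called member.

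Set beside ageing of the wild type, from 16 to 104 weeks, which shares no library with this comparison, the called genes were divided. In the wild type 1286 of 12690 genes (10.1%) were called. Risers made up 5.13% and fallers 5% of all genes there, and 52.03% had a positive change. Of the 45 genes that rose in the mutant, 33 were positive in the wild type and 20 were called higher there, and of the 42 that fell, 26 were negative and 12 were called lower. In the opposite direction 6 of the risers and 5 of the fallers were called in the wild type. Across all genes the 2 sets of changes had a Pearson r of 0.15 and a Spearman coefficient of 0.11. Over the 87 called genes, which were picked by their change in the mutant, the Pearson r was 0.59. These values are descriptions over genes that are not independent. A test of the difference between the mutant and the wild-type change called 387 genes (3.05%), with the mutant change above in 1.8% and below in 1.25% of all genes, and 34 of them were among the 87. In 19 the mutant change lay above the wild-type change and in 15 below.

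Cxcl1 and Ighg1 rose in both (wild type 4.99 and 4.91), and Sqle had nearly equal changes (2.10 and 2.09), each without a called difference. Krt23 fell in both (-2.39 and -3.01). Cyp3a11 fell in both but by less in the mutant: its wild-type change was -3.00, and the difference of 1.72 was called (adjusted p = 0.00153). Serpina12 fell in the mutant and rose by 1.85 in the wild type, a difference of -3.95 (adjusted p = 1.01e-05), and Adgrv1 likewise fell and rose by 1.03 (difference -3.14, adjusted p = 2.23e-04). Hr rose in the mutant and fell by 1.97 in the wild type (difference 4.03, adjusted p = 0.0019). Raet1d rose by 2.50 in the mutant against 0.41 in the wild type (difference 2.09, adjusted p = 0.0189), and Cyp26a1 by 3.89 against 1.31 (difference 2.58, adjusted p = 0.00107). Cyp1a2, Cyp1a1 and Aox3 fell in the mutant with wild-type changes of 0.82, 0.73 and 0.68 (differences -1.80, -1.73 and -1.82).

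Outside the called set, the largest positive difference among the genes given here was that of Cyp4a14 (5.26, adjusted p = 1.96e-04), which was level in the mutant and fell by 5.41 in the wild type. Large negative differences were those of Moxd1 (-9.45), Nr1d1 (-4.41), Adgrf1 (-4.20) and Dbp (-4.10), which had log2 fold changes of 3.21 to 6.59 in the wild type. Nr1d1 and Dbp are clock genes, and the part of the hour of collection was not tested.

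**Figure D5:**
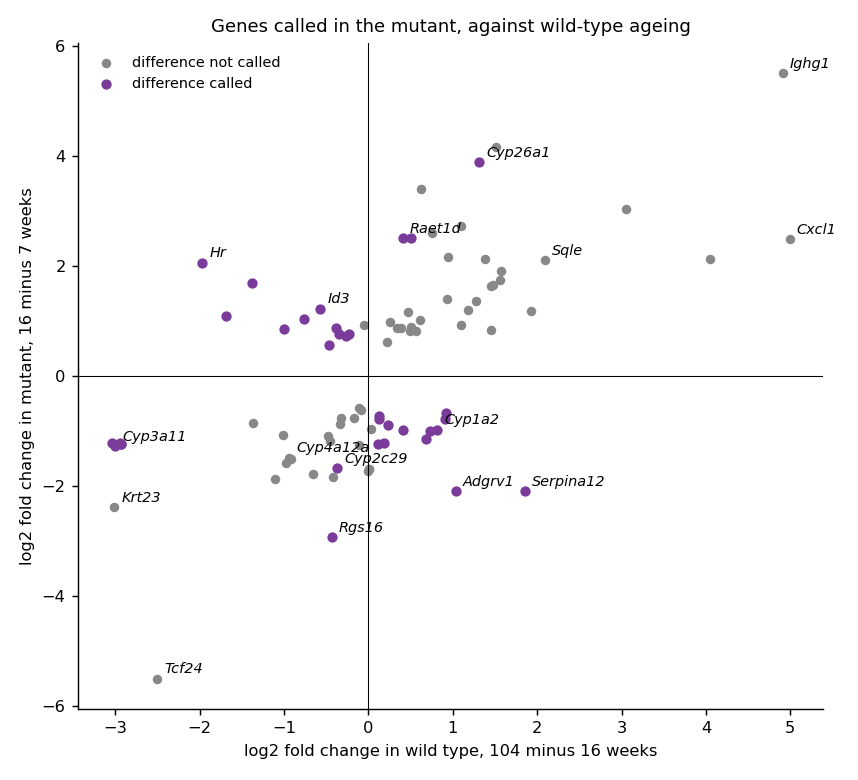
The 87 genes called in the mutant, with the log2 fold change in wild type (104 minus 16 weeks) across and in the mutant (16 minus 7 weeks) up; purple points are the 34 whose change differed between genotypes. Ighg1, Cxcl1 and Sqle lie in the upper right, Cyp3a11 in the lower left, Hr in the upper left, and Serpina12 and Adgrv1 in the lower right.

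In mutants of 16 weeks whose food was restricted from 7 weeks, set against the same 7-week libraries, 2276 genes (17.9%) were called, 8.53% higher and 9.4% lower. Because both comparisons share the 7-week libraries, their values are given side by side only. The log2 fold change of Cyp26a1 was 3.89 with free feeding and 5.42 with restriction, that of Raet1d 2.50 and 2.94, of Id3 1.22 and 1.64, and of Immp2l -1.22 and -1.29. In the same order, Tmem176a had 0.87 and -0.57, Cplane1 1.91 and 0.13, Cyp3a11 -1.29 and 0.55, and Scd1 -1.73 and -0.03. Cyp4a12a had -1.49 and -5.30, Aox3 -1.14 and -3.12, and Sparc -1.18 and -0.65.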

How the data were processed

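Liver mRNA libraries of 6 groups of 4 were used, with groups taken from the labels. The authors deposited raw read counts per gene; the submitters' processing notes name Trimmomatic 0.39, STAR 2.7.0f, featureCounts of Subread 1.6.4 and GRCm38.p6, and the sources used here give no annotation release, strand setting or treatment of multi-mapped reads. Total counts were 13514648 to 20624803 over the 8 libraries compared. Of 22429 genes 12690 passed edgeR's filterByExpr (at least 10 counts). edgeR 4.0.16 (R 4.3.3) fitted all 24 libraries by group with TMM scaling and the quasi-likelihood test, and p-values were adjusted over all genes by Benjamini-Hochberg. The script was tested on simulated data. Gene span came from the deposited length column, and slopes were tested by exact permutation in Python 3.11.15 with scipy 1.17.1. Alternatives were the 8 libraries alone, DESeq2 1.42.0, limma 3.58.1 (voom), other scalings and filters, a replicate block and leaving out each library. Taking span from the annotation was an alternative chosen after seeing the data.

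The members and lists were chosen with earlier results of these data known. Genes were named by a rule: the 12 largest rises and falls among called genes without overlap and with a mean of at least 2 CPM, the 5 members of each of 48 lists with the smallest p, a fixed list, the 5 largest differences from the wild type in each direction and the 5 longest genes, from which a subset is printed. Of the called genes 45 fall outside it; those named were named after their values were seen, as were those set beside restriction. Some genes are not reported here. RefSeq promoter windows on GRCm38.p6 existed for 66 of the 87 called genes.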

Additional observations from a re-analysis of the deposited data

Results flagged for a closer look

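A library stood far from the other 3 of its age in 18 of 310 sets of 4 values checked, where chance gives about 1 in 20. The value in each case is the gap to the nearest library as a share of the whole range. At 16 weeks replicate 1 was high for Phlda3 (0.948), Cyp51 (0.873), Irf7 (0.860) and Bax (0.831), and low for Hr (0.937), Foxo1 (0.917) and Klhl13 (0.835). Replicate 2 was high for Cyp2c29 (0.954), replicate 3 for Rnf43 (0.948), Mmp14 (0.912) and Col4a2 (0.848), and replicate 4 for Dbp (0.942). At 7 weeks replicate 1 was high for Capn11 (0.942) and Cdkn1a (0.834), replicate 2 for Rdh9 (0.987), replicate 3 for Igkc (0.849), and replicate 4 for Tnfrsf10b (0.836) and Tmem43 (0.835).

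For 34 of the 87 called genes the mutant change differed from the wild-type change between 16 and 104 weeks in edgeR's test of that difference. Values are the mutant change minus the wild-type change on the log2 scale. The mutant change was above for Hr (4.03), Rtn4rl1 (3.07), Lrfn3 (2.78), Cyp26a1 (2.58), Raet1d (2.09), Raet1e (2.00), Paqr9 (1.85), Arhgef19 (1.80), Id3 (1.80), Tmem43 (1.25), AI661453 (1.10), Llgl2 (1.04), Mmp14 (0.99) and Mbl2 (0.99). It was also above for the Cyp3a genes, which fell in both genotypes: Cyp3a16 (1.82), Cyp3a11 (1.72), Cyp3a44 (1.72), Cyp3a41a (1.69) and Cyp3a41b (1.69). It was below for Serpina12 (-3.95), Adgrv1 (-3.14), Rgs16 (-2.51), Aox3 (-1.82), Cyp1a2 (-1.80), Cyp1a1 (-1.73), Irf5 (-1.70), Narf (-1.60), Immp2l (-1.40), Sgms1 (-1.39), Phf8 (-1.35), Cyp2c29 (-1.31), Cadps2 (-1.13), Ces2a (-0.92) and Rab3gap1 (-0.85).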

How the results depend on the processing

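Against 87 genes called in the mutant between 7 and 16 weeks, the fit on the 8 libraries called 580, the same with a replicate block 480, and DESeq2 201. Leaving out 1 library gave 29 to 70. The labels number the replicates alike at both ages and do not say what the numbers stand for. Same-numbered libraries did not deviate together over the genes tested (correlations -0.013, -0.039, 0.013 and 0.056). Such small correlations cannot exclude a pairing by number, and the replicate block on 24 libraries called 70. For the difference from wild-type ageing, 387 genes, DESeq2 called 646 and leaving out 1 library gave 228 (without 7-week replicate 3) to 506. The span slope difference of -0.158 ran from -0.136 to -0.181 without 1 library, and sign flips by replicate number, a replicate block, gave exact p = 0.125, the smallest that 16 flips allow. The cause of these shifts was not tested.

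None of the 87 called genes changed direction under any of these alternatives. Among genes not called, leaving out 1 library moved the change of Ercc1 between -0.29 and 0.14 (0.04 without 16-week and 0.14 without 7-week replicate 2), of Igkc between -0.17 (without 16-week replicate 4) and 1.26, and of Ighm between -0.55 and 0.27 (0.10 without 16-week and 0.27 without 7-week replicate 3). It moved Cdkn1a between -0.048 and 0.74 and Gdf15 between -0.0656 and 0.70, each lowest without 16-week replicate 1. Cyp4a14 ran from -0.39 to 0.41 (0.017 without 16-week replicate 3, 0.41 without 7-week replicate 1), and was 0.023 with the 8 libraries and a replicate block and 0.026 with limma-voom. Without 7-week replicate 1 the change of Capn11 was 4.19 and that of Nptx1 4.95 (edgeR adjusted p = 0.0754), and without 7-week replicate 2 that of Adam32 was 3.54. Genes under 1 CPM rest on few counts, and 4 libraries an age limit every call.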
